A study of Mus musculus with 6 samples.

Results

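Strong p53 binding sites that appeared only after irradiation, in both B and non-B cells of the mouse spleen, numbered 700. They were 700 of the 24507 peaks in irradiated B cells, and the 5 peak lists of the series held 48115 peaks. Each was selected on measured values: a deposited value of at least 100 in irradiated B cells, an overlap of at least 1 bp with a peak in irradiated non-B cells, and no overlap with a peak of either mock list or of the irradiated Trp53-/- list. The deposited value is the −log10 of the p-value given to a peak, as judged from the values, since the sources used here do not state its scale.

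ChIP-seq with the antibody CM5p recovered DNA fragments bound by p53 from C57/Bl6 mice. The groups were wild-type (Trp53+/+) B cells mock, wild-type B cells 4 h after whole-body irradiation with 7 Gy (IR), wild-type non-B cells mock, wild-type non-B cells IR, and, as a control that lacks p53, whole spleen of Trp53-/- mice 4 h after the same dose. Wild-type mice were 8 weeks old, and no age is given for the Trp53-/- mice. B cells were those held by B220 magnetic beads and non-B cells were the remainder of the spleen, a mixture rich in T cells. No expression values were used here, so the labelled cell types were not checked against markers. Each group had 1 library from pooled chromatin, so no difference could be set against a replicate spread, read depth is unknown, and 95% Wilson intervals below cover counting error over peaks only. In pooled cells, fewer bound cells and less binding per cell cannot be told apart.

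After DNA damage, p53 accumulates in the nucleus and activates genes for cell cycle arrest, apoptosis, DNA repair and metabolism. It binds DNA as a tetramer, through a response element made of a pair of decamers with the p53 consensus, in which a C at position 4 and a G at position 7 form the core. An element is called unsplit where the decamers adjoin, and spaced where bases lie between them. Here an unsplit element had at most 3 mismatches over its 20 bases and a spaced one at most 2, with 1 to 15 bases between the decamers, within 300 bp of the peak midpoint.

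The sequences below are examples, and the first set was limited to unsplit elements with at most 1 mismatch. The highest site, at Epha2, and the sites at Cdkn1a, Pmaip1 and Trp53 had no such element and are not shown. All are from the mm9 (NCBIM37) reference, 5′ to 3′, with the matched decamers in capitals. The first set gives unsplit elements of members outside any repeated sequence: Ddit4, an inhibitor of mTOR signalling, Mxi1, a MYC antagonist, and Atg7, an autophagy enzyme, each without a mismatch, and Gfpt1, an enzyme of hexosamine synthesis, Gtse1, a regulator of p53 in G2, Trp73, a p53 family member, and another Atg7 site, each with 1 mismatch.
Ddit4, chr10:59411240-59411279, plus strand: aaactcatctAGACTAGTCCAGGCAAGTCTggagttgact
Mxi1, chr19:53358431-53358470, plus strand: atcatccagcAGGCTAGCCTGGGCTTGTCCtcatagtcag
Atg7, chr6:114617709-114617748, plus strand: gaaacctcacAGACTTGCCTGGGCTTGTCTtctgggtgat
Gfpt1, chr6:87019705-87019744, plus strand: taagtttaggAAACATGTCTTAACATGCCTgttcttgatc
Atg7, chr6:114717505-114717544, plus strand: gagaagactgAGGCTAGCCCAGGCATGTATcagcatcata
Gtse1, chr15:85690365-85690404, plus strand: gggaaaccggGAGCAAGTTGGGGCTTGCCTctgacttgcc
Trp73, chr4:153479970-153480009, plus strand: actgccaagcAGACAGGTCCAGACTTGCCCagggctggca

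The second set gives spaced elements without a mismatch, chosen after their values were seen, from members with no unsplit element. The spacer is in lower case between the capitals. Mgmt encodes a DNA repair enzyme that removes alkyl groups from guanine, and Foxo3 a transcription factor of the stress response.
Npffr1, chr10:61051745-61051795, plus strand: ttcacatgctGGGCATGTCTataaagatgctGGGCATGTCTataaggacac
Ppp1r1c, chr2:79525306-79525346, plus strand: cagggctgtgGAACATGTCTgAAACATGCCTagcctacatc
Foxo3, chr10:41994394-41994434, plus strand: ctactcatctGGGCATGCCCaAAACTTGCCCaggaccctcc
Mgmt, chr7:144086517-144086567, plus strand: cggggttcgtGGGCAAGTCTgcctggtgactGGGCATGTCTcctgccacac

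The third set comes from 2 sequences that recur across the genome, called repeated sequence A and repeated sequence B here. The first line of each is the member most often aligned to the others, and the following lines were turned to its orientation where they aligned to it, with the strand given. For A these are 5 other members with high values, of which Gm15782 joined the group through other members and did not align to the first line itself. Capitals mark the best match within each line, and decamers in capitals need not correspond between lines. In A, those of Ankrd10, Gm10505 and Ppp2r2c start a decamer later than those of the first line. Names are those of the nearest annotated gene.
A, U6, chr15:49801841-49801900, plus strand: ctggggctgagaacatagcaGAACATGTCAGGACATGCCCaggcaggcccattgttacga
A, Papd4, chr13:93981116-93981175, minus strand: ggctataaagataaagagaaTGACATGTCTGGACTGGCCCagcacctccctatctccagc
A, Ankrd10, chr8:11644469-11644528, plus strand: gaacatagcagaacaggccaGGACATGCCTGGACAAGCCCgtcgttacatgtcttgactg
A, Gm15782, chr6:149304385-149304444, plus strand: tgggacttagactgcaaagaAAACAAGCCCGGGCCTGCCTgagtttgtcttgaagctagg
A, Gm10505, chr17:27524617-27524676, minus strand: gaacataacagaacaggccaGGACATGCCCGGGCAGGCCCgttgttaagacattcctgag
A, Ppp2r2c, chr5:37323612-37323671, minus strand: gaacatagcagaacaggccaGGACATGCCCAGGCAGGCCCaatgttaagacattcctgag
B, Gm17434, chr5:22753816-22753875, plus strand: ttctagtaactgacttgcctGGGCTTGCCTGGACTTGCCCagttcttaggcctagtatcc
B, SNORD70, chr10:37960309-37960368, plus strand: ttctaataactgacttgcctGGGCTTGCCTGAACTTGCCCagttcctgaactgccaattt
B, Lca5, chr9:83379139-83379198, minus strand: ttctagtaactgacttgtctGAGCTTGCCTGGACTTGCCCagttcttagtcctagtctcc

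The last set shows 200 bases from each of the 2 members with the most unsplit elements, in an intron of Ppm1h and between genes near AC110903.1, which were picked for that number.
Ppm1h, chr10:122280909-122281108, plus strand: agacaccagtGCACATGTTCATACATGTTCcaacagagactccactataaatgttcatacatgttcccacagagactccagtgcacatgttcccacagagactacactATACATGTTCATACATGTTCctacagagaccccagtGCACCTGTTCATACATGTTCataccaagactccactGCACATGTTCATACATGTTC
AC110903.1, chr7:87099838-87100037, plus strand: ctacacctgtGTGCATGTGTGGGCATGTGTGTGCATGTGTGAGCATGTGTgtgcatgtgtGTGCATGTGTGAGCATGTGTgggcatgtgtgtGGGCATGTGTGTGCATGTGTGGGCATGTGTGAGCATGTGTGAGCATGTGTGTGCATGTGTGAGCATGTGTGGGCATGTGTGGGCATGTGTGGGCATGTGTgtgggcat

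The count of members was set by the mock lists alone. Of 1045 irradiated B cell peaks with a value of at least 100, all overlapped a peak in irradiated non-B cells, against 73.6% of all irradiated B cell peaks, and 0 overlapped a Trp53-/- peak. The Trp53-/- list held only 83 peaks, with a highest value of 44.34, so few overlaps with it were possible. A mock peak was listed at 345 of the 1045, in B cells only at 120, in non-B cells only at 20 and in both at 205. The members were therefore 66.99% (64.1 to 69.8%) of the strong peaks, while 95.2% of all irradiated B cell peaks were in neither mock list. Absence from mock fell with the value that chose the members: 81.5% of strong peaks between 100 and 120 were members, and 39.9% of those above 200. The mock lists held 1413 peaks for B and 712 for non-B cells, and a site missing from them may have been bound without being called. The fitted background mean, which accounts for only part of the values of each list, was 0.595 reads in the B cell mock list and 1 read in the non-B cell mock list, against 2.03 and 2.02 in the irradiated lists, and its part in the absence from mock was not tested. Only 3 members had a mock peak within 1 kb and 30 within 10 kb, and the median gap to the nearest was 391 kb.

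The values at the limit were close together. The last members lay in introns of Pvt1 (100.64 in B and 67.34 in non-B cells) and Rapgef1 (100.64 and 65.95) and between genes near Gm13498 (100.28 and 77.87). The nearest peaks below the limit were beside Snord14e, at Eng and upstream of Faim3, each at 99.99 in B cells, with 108.34, 81.17 and 54.35 in non-B cells.

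Members were strong in both compartments, although the rule used only the presence of the non-B cell peak and not its value. In irradiated B cells the deposited value spanned 100.28 to 323.27 with a median of 136.66. In irradiated non-B cells it ran from 32.72 to 552.22 with a median of 130.15. Of the 700 members, 480 (68.6%, 65.0 to 71.9%) had a value of at least 100 in non-B cells as well, against 4.37% of all irradiated non-B cell peaks. The overlap with a strong B cell peak selects high non-B cell peaks, so this contrast is a description. In the non-B cell list 532 members ranked at or above the 95th percentile, and the lowest was at the 74.9th percentile. Across the 700 members Spearman's rho between the compartments was 0.712, and both values came from libraries called by the same procedure. Midpoints in B and non-B cells lay within 100 bp of each other at 577 members.

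**Figure D1:**
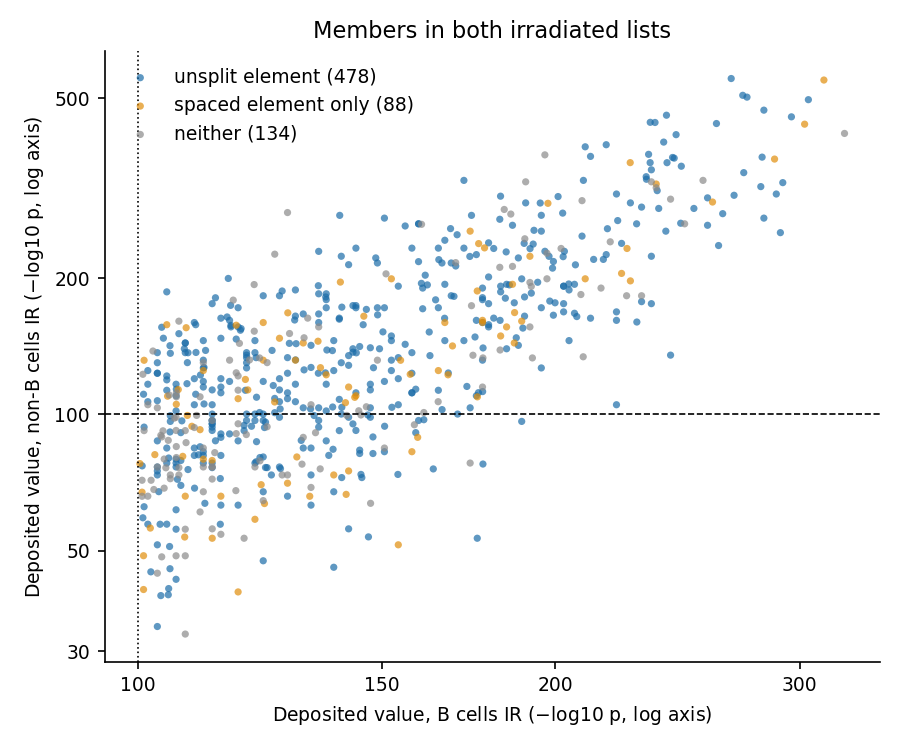
Deposited value of each of the 700 members in irradiated B cells (horizontal, log axis) and irradiated non-B cells (vertical, log axis), with 1 point per member coloured by element class. The dotted line is the B cell minimum of 100 that chose the members, and 480 points lie on or above the dashed line at 100 in non-B cells.

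The highest member in B cells lay in an intron of Epha2, an ephrin receptor kinase, at chromosome 4, 140858956 to 140860716. B cells gave 323.27 and non-B cells 417.64, and its best unsplit match had 4 mismatches, so it held no element by the limits used. The next lay upstream of Npffr1, a neuropeptide receptor gene, with 312.39 in B and 548.01 in non-B cells, and held the spaced element with an 11-base spacer printed above. In the 600 bp around the Npffr1 midpoint, only 42.5% of 31-base words occurred once in the reference. The site beside Ppp1r1c had 302.54 and 437.79 with a 1-base spacer. The Gfpt1 intron had 290.6 in B and 252.12 in non-B cells with an unsplit element of 1 mismatch. Sites of like rank thus carried an unsplit element, a spaced element or neither. Trim7, which encodes a ubiquitin ligase, had a member inside the gene, 330 bp past an annotated start that lies downstream of the first one (287.8 and 366.59) with a spaced element of 1 mismatch, and Zmynd8, a chromatin reader gene, had an intronic member (282.74 and 470.15) with an element of 2 mismatches. The highest non-B cell value of any member was 552.22 (267.8 in B cells), between genes near Gm12397, at an element of repeated sequence B without a mismatch.

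The rank of a few members differed between the compartments. The 5 with the largest fall in percentile from B to non-B cells lay near Ednrb, in introns of Pax5, Pdcd1lg2 and Ebf1, and upstream of Eif3l. Pax5 and Ebf1 encode transcription factors that define the B cell lineage. The Pax5 intron had 103.23 in B and 34.0 in non-B cells, a move from the 95.9th to the 76.4th percentile. The Ebf1 intron had 105.12 and 39.96, a move from the 96.1st to the 81.5th percentile. Pdcd1lg2, a ligand of the PD-1 receptor, had 118.05 and 40.54. The largest rise was 2.04 percentile points, at a site between genes on chromosome 9 near a U6 gene (104.86 in B and 186.55 in non-B cells), and the B cell minimum leaves members little room to rise. With 1 library per compartment, these differences were not tested.

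An unsplit element was present at 478 of the 700 members, or 68.3% (64.7 to 71.6%). The same windows moved by 10 kb held one in 3.58% (2.44 to 5.23%). The share was 57.4% (52.1 to 62.5%) in the 345 strong peaks listed in mock, 14.4% in the 16217 weaker shared peaks absent from mock, and 15.3% in all irradiated B cell peaks. Members thus exceeded the mock-listed strong peaks by 10.9 percentage points (Newcombe interval 4.68 to 17.1). Since the mock-listed peaks had higher values, with a median of 185.7 in B cells, the shares were set side by side within bands of value. The bands did not make the values equal. At 150 and above the B cell medians were 188.04 for members and 227.1 for mock-listed peaks. Between 100 and 150 they were 118.05 and 123.56 in B cells, and 101.81 and 133.83 in non-B cells. Between 100 and 150 an element was present at 65.3% of members and 39.3% of mock-listed peaks, a difference of 25.99 points (15.97 to 35.3). At 150 and above the shares were 72.8% and 67.3%, and the interval of the difference, -2.47 to 13.6 points, included 0.

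Most elements were close to the consensus and to the middle of the peak. The best unsplit element had 0 mismatches at 77 members, 1 at 184, 2 at 133 and 3 at 84, whereas in the moved windows none of 698 had 0 or 1 mismatch, 2 had 2 and 23 had 3. The median distance from the element centre to the peak midpoint was 44 bp, and 388 of the 478 elements (81.2%) lay within 100 bp. A spaced element alone was found at 88 members (12.6%, 10.3 to 15.2%) and in 10.3% of moved windows (8.27 to 12.8%). Only sites without an unsplit element could enter this class, which left out 478 members but few moved windows. These shares therefore rest on unlike proportions of eligible sites and cannot be compared directly. Of members without an unsplit element, 88 held a spaced one and 134 did not. Nearly all 698 moved windows were eligible, and 72 of them held a spaced element. Among eligible sites the spaced share was thus higher in members than in moved windows. Spacer lengths differed between members and moved windows. A spacer of 1 base was the best match at 38 of the 88 members (43.2%), at 9 of 27 mock-listed strong peaks (33.3%), and in 5 of 72 moved windows (6.94%). Neither kind was found at 134 members (19.1%, 16.4 to 22.2%), among them Epha2, against 34.8% of mock-listed strong peaks. Median values were 140.25, 137.52 and 121.25 in B cells for members with an unsplit element, a spaced element only and neither.

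**Figure D2:**
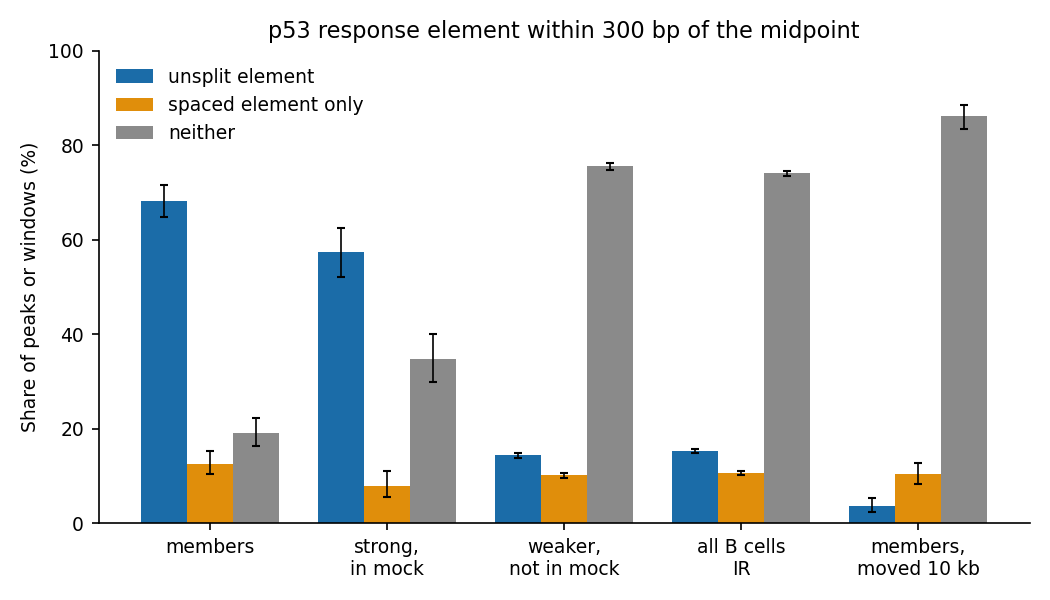
Share of peaks or windows (vertical, percent, bars from 0) with an unsplit p53 element, a spaced element only or neither, with 95% Wilson intervals. The unsplit share is 68.3% in members, 57.4% in strong peaks listed in mock, 14.4% in weaker peaks and 3.58% in the members' windows moved by 10 kb.

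The mock lists chose the members, so the share of strong peaks absent from mock is given by element as a description. It was 63.1% (54.3 to 71.2%) where the unsplit element had 0 mismatches, 67.4% (61.6 to 72.7%) with 1, 76.9% (70.1 to 82.5%) with 2 and 77.8% (69.1 to 84.6%) with 3. It was 76.5% with a spaced element only and 52.8% (46.6 to 58.8%) with neither. The intervals of neighbouring mismatch classes overlapped. Values moved with these classes too, since the median over strong peaks was 182.59 at 0 mismatches and 145.775 at 3, and its part in the result was not tested.

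Longer runs of decamers were found at some members. At least 2 unsplit elements that did not overlap each other were present at 54 members (7.71%), against 4.64% of mock-listed strong peaks, with an interval of the difference of -0.195 to 5.91 points. The Ppm1h intron held 14, with values of 235.97 in B and 441.57 in non-B cells. The site near AC110903.1 held 11, with 295.98 and 454.43. In the 600 bp around their midpoints, 75.8% and 78.8% of 31-base words occurred once in the reference. A run of at least 3 adjoining decamers with at most 1 mismatch each was present at 36 members (5.14%), against 12 mock-listed strong peaks (3.48%). Of the 36, 25 were on repeated sequence B, described below, and the share was 1.54% in members on neither repeated sequence. The longest run, of 6 decamers, lay at Cbs, an enzyme gene of cysteine synthesis, with 134.96 in B and 93.76 in non-B cells.

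Many members lay in copies of the same sequence, a pattern noticed after the elements had been scanned. When the unsplit elements of all strong peaks were aligned to each other with 100 bases on either side, 184 peaks joined in repeated sequence A and 77 in repeated sequence B, and the next group had 6. Sequence A held 113 members on 20 chromosomes and sequence B 68 members on 18. Together they held 181 members, which is 25.9% of all members and 37.9% of those with an unsplit element. Of the 77 members without a mismatch in their element, 52 were in these sequences, 48 of them in B. Median identity over aligned pairs was 91.4% in A and 77.6% in B. No repeat annotation was used here, so neither sequence is given a class or a name.

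The members on sequence B had the higher values. B cells gave a median of 171.59 (103.23 to 288.63), and non-B cells one of 180.505 (39.79 to 552.22). On sequence A it was 126.45 (100.89 to 217.59) and 138.49 (57.22 to 271.47), and for the 519 members on neither it was 137.24 and 122.66. The sequences also differed in how often their strong peaks were listed in mock. Of strong peaks on sequence B, 68 of 77 (88.3%, 79.3 to 93.7%) were members, and of those on sequence A 113 of 184 (61.4%, 54.2 to 68.1%). On sequence A only 4 of 25 strong peaks without a mismatch were members (16%, 6.40 to 34.7%), compared with 87 of 133 with 1 mismatch (65.4%, 57.0 to 73.0%) and 21 of 25 with 2 (84%, 65.3 to 93.6%). On sequence B 48 of 55 without a mismatch were members (87.3%, 76.0 to 93.7%). Strong peaks with perfect elements were thus mostly listed in mock on sequence A and mostly absent from mock on sequence B.

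**Figure D3:**
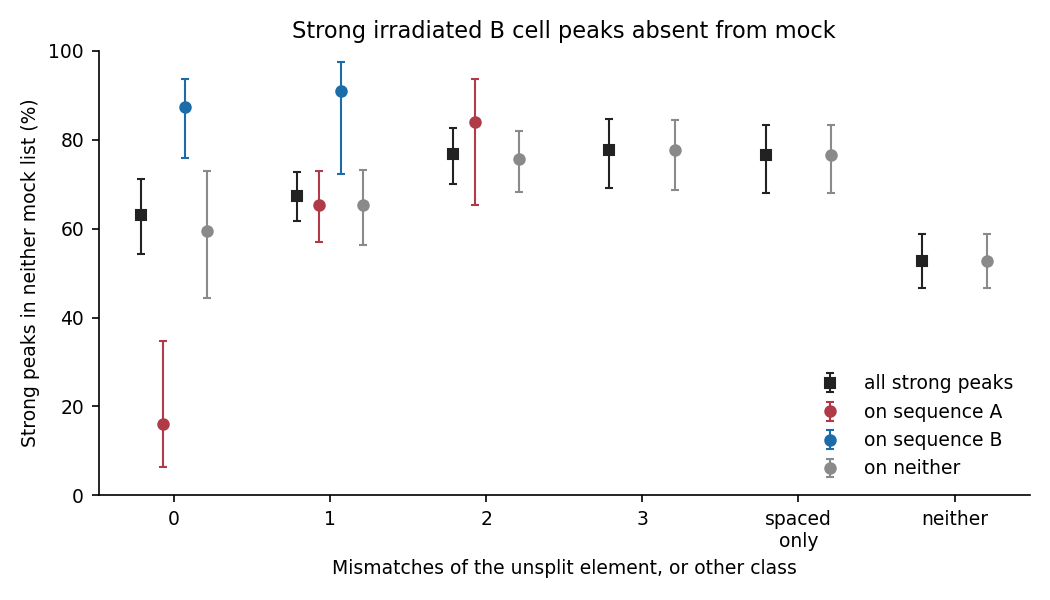
Share of strong irradiated B cell peaks in neither mock list (vertical, percent), by mismatches of the unsplit element or by class (horizontal), with 95% Wilson intervals, for all strong peaks and for those on repeated sequence A, on B and on neither. Classes with under 10 strong peaks are left out, and the lowest point is sequence A without a mismatch, at 16%.

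The genome was then searched with the representative member of each sequence, so that copies the rule had not chosen, bound or not, could be set beside the members. The search was incomplete: it found a copy at 106 of the 113 members on sequence A and at 51 of the 68 on sequence B, and it missed 12 of the 48 members on B without a mismatch. The shares below hold for the copies found. It found 1104 copies of sequence A and 558 of sequence B on the autosomes and X. An irradiated B cell peak overlapped 69.4% of A copies and 26.5% of B copies. Overlap with a peak varied with the element in the copy. On sequence B, 84.3% of copies without a mismatch overlapped an irradiated B cell peak (76.0 to 90.1%), 45.4% with 1 mismatch (36.3 to 54.8%), 11.1% with 2 (4.41 to 25.3%), 0 of 15 with 3, and 3.03% with 4 or more (1.60 to 5.66%). Irradiated non-B cells gave 81.4, 41.7, 11.1 and 2.36% for 0, 1, 2 and at least 4 mismatches. On sequence A the B cell shares were 72.9% (65.1 to 79.5%), 83.9% (80.8 to 86.6%), 61.5% (54.5 to 68.1%), 21.7% (9.66 to 41.9%) and 12.4% (7.66 to 19.4%) from 0 to at least 4 mismatches, so copies with 1 mismatch were covered more often than perfect ones.

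Listing in mock also differed between the sequences. A B cell mock peak overlapped 25.7% of perfect A copies (19.3 to 33.4%), 7.41% of A copies with 1 mismatch (5.60 to 9.74%), and 2.94% of perfect B copies (1.01 to 8.29%). No copy found of either overlapped a Trp53-/- peak (0 of 1662), in a list of only 83 peaks. Reads from near-identical copies are hard to place, and 54.2% of 31-base words around members on A, 91.9% on B and 100% on neither occurred once in the reference (medians over members). Whether read placement bears on the lower share of perfect A copies was not tested.

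**Figure D4:**
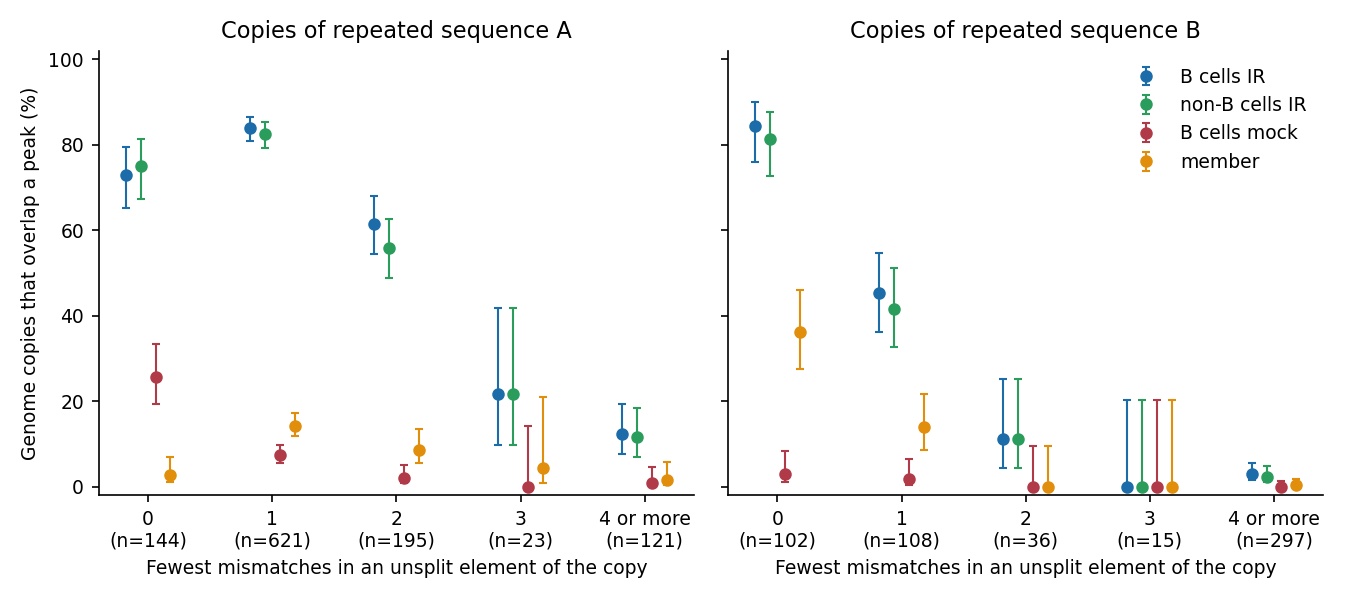
Share of the genome copies found of repeated sequences A (left) and B (right) that overlap a peak (vertical, percent), by the fewest mismatches in an unsplit element of the copy (horizontal, with the number of copies), with 95% Wilson intervals. Colours mark irradiated B cell peaks, irradiated non-B cell peaks, B cell mock peaks and members; on B the irradiated B cell share falls from 84.3% at 0 mismatches to 3.03% at 4 or more.

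Peaks that overlapped none of the copies found of A or B still differed in element content. An unsplit element was present at 59.6% of such members (55.4 to 63.7%), 48.8% of mock-listed strong peaks (42.7 to 54.9%) and 11.3% of weaker peaks. Peaks grouped in A or B at copies that the search missed remain in these shares. With those left out as well, the share was 57.9% of 513 members (53.6 to 62.1%). Between 100 and 150 the shares were 55.1% of members and 21.3% of mock-listed peaks, a difference of 33.8 points (22.2 to 43.1). At 150 and above they were 66.2% and 61.5%, a difference of 4.72 points whose interval, -4.77 to 14.2, included 0.

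Members were mostly distal. The midpoint of 169 members (24.1%, 21.1 to 27.4%) was in a promoter window, taken as 5 kb before to 2 kb after any annotated start, against 26.7% of mock-listed strong peaks, 53.1% of weaker peaks absent from mock and 47.6% of all irradiated B cell peaks. By feature, 372 lay between genes, 297 in introns, 12 in UTRs, 12 in non-coding exons and 7 in coding exons. Promoter members held an unsplit element in 59.8% of cases (52.2 to 66.9%) and distal members in 71% (67.0 to 74.7%), and both far exceeded the weaker peaks, at 6.29% in promoters and 23.6% elsewhere. The median GC content of members was 46.2%, against 46.3% in mock-listed strong peaks, 50.8% in weaker peaks and 44.2% in moved windows.

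Short words for other factors were counted on either strand in the 600 bp around each midpoint. TGANTCA, the AP-1 word, was present at 26% of members (22.9 to 29.4%), 29.9% of mock-listed strong peaks, 17.4% of all irradiated B cell peaks and 16.9% of moved member windows. Against all irradiated B cell peaks, GGGCGG, the GC box, was at 15.3% against 33.9% (a difference of -18.6 points, -21.2 to -15.7), and CCGGAAGT, an ETS word, was at 0.571% against 4.95%. TGACGTCA, the CREB word, was at 0.429% against 1.93%. The remaining words, of which that of PU.1 shares the letters GGAAGT with the ETS word, were CCAAT of NF-Y (61.0% against 53.2%, a difference of 7.85 points, 4.13 to 11.4), CACGTG, an E-box (8.43% against 12.5%), GAGGAAGT of PU.1 (11.1% against 11.8%) and ATTTGCAT, the octamer (4.00% against 4.75%). In mock-listed strong peaks the GC box was at 16.5%, the ETS word at 1.16%, the CREB word at 0.29% and CCAAT at 64.6%. For every word counted, the interval of the difference between members and mock-listed strong peaks included 0.

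Members in promoters of known p53 target genes covered several arms of the response. Of 127 genes in 8 lists of p53 targets and cell identity genes, 11 had a member in the promoter window (0.648% of 22380 protein-coding genes did), a further 11 had a strong peak listed in mock instead (0.38%), 76 had a weaker peak only (38.2%) and 29 had no irradiated B cell peak (60.8%). Apart from those of cell identity genes, the lists name genes known for p53 regulation, so their share says nothing of how members were distributed otherwise. None of the 11 genes with a promoter member was a cell identity gene.

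Among p53 regulators, Trp53 itself and Rchy1, a ubiquitin ligase that targets p53, had a promoter member. The Trp53 member, at chromosome 11, 69392635 to 69394050, had 121.24 in B and 193.6 in non-B cells, and its window is shared with the overlapping gene Wrap53. Rchy1 had 108.29 and 155.46. Neither held an unsplit element, and Rchy1 held a spaced one with 2 mismatches. Mdm2, the main ubiquitin ligase for p53, Ccng1 and Trp53inp1 had strong peaks of 223.88, 219.76 and 175.75 in B cells that were listed in mock, and so were not members.

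Of the growth arrest genes, Gtse1, Plk2 and Cdkn1a had members. Gtse1 had 178.97 in B and 201.22 in non-B cells, over the element printed above. Plk2, a polo-like kinase gene, had a pair of members 1438 bp apart, with 125.15 and 115.84 at 2.23 kb before the start and 113.56 and 82.35 at 372 bp past it, and the upstream one held an element of 2 mismatches. Cdkn1a encodes the cell cycle inhibitor p21. Its main peak, at 318.37 in B cells, was listed in mock, while a second peak inside the gene, at chromosome 17, 29230051 to 29232727, was a member with 121.4 and 145.58. Btg2 and Dyrk3 had mock-listed strong peaks of 207.9 and 295.3.

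Among apoptosis genes with a strong promoter peak, most had it listed in mock. Pmaip1, which encodes NOXA, had a promoter member (192.73 in B and 237.89 in non-B cells), and Bcl2l11, which encodes BIM, had an intronic member (186.77 and 143.84) with a spaced element of 1 mismatch. Bax, Bbc3, Aen, Phlda3, Zmat3 and Fas had mock-listed strong peaks of 298.39, 269.88, 266.02, 255.55, 224.91 and 113.7 in B cells. Of the 25 apoptosis genes, 1 therefore had a promoter member, 6 a mock-listed strong peak (0.38% of all protein-coding genes), 16 a weaker peak and 2 no peak.

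Of 15 genes for DNA repair and nucleotide supply, 3 had a promoter member and 0 a mock-listed strong peak. Mgmt had 123.08 in B and 159.61 in non-B cells, over a spaced element without a mismatch. Ercc5, an endonuclease of nucleotide excision repair, had 132.52 and 163.22 with no unsplit element. The numbers of genes in both lists are small and no difference between the lists was tested.

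Of 17 genes that restrain growth factor and mTOR signalling or drive autophagy, 1 had a promoter member, 11 a weaker promoter peak and 5 none, and 3 had a member elsewhere inside the gene, as 0.979% of all protein-coding genes did. Ulk1, the autophagy-initiating kinase, had a promoter member (230.75 in B and 177.48 in non-B cells). Inside the gene, Atg7 had members of 195.35 and 254.04 and of 106.49 and 116.61, and Tsc2, an mTOR inhibitor, had 129.84 and 116.61. The Ddit4 member lay beyond the 3′ end of the gene and outside the promoter window, with 242.94 and 369.57. The Ddit4 promoter window itself held 3 weaker peaks, the highest at 98.0 in B cells, and a peak there was listed in mock. In metabolism, Lpin1, a phosphatidate phosphatase, had a promoter member of 173.57 and 254.04. All 14 B cell identity genes had only weaker promoter peaks, as 38.2% of all protein-coding genes did. A promoter peak was listed in mock at 5 of the 14. That share was not computed over all protein-coding genes, so the count cannot be read as particular to these genes. Of 15 T, NK and myeloid identity genes, 11 had no irradiated B cell peak in the promoter, a count near the share of 60.8% over all protein-coding genes.

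**Figure D5:**
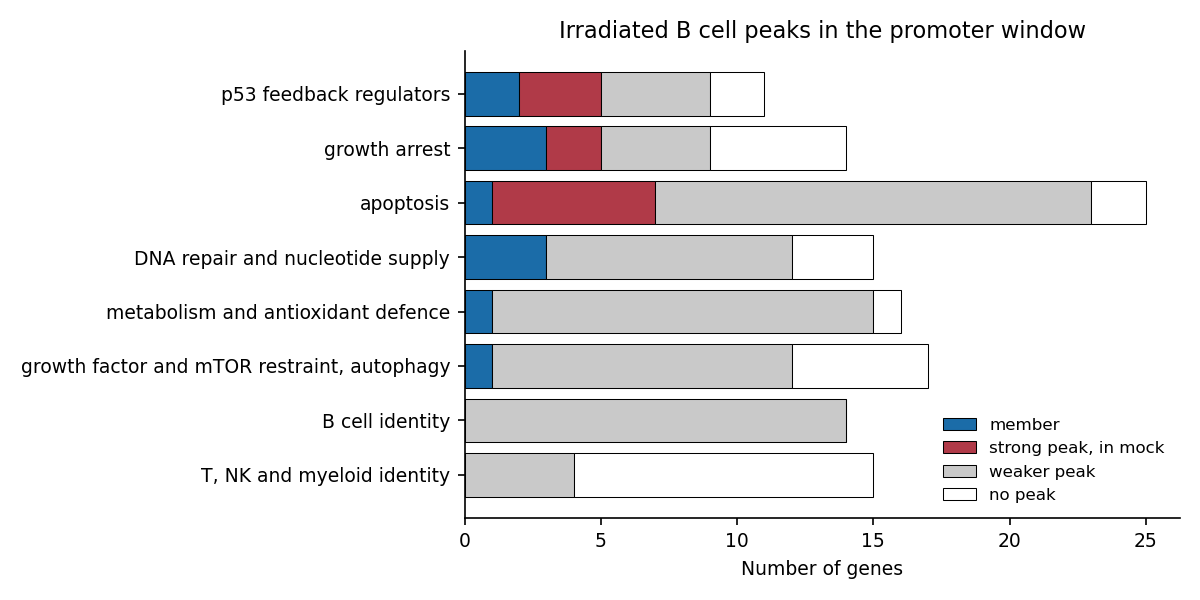
Number of genes (horizontal) in each of 8 lists (vertical) by irradiated B cell peak in the promoter window, as the first of these that applies: a member, a strong peak listed in mock, a weaker peak, or no peak (Cdkn1a, which has both of the first kinds, counts as a member). Members are in 6 lists, and mock-listed strong peaks in the first 3.

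Members were spread over the genome. They lay on the 19 autosomes, from 23 on chromosome 13 to 57 on chromosome 2, and 8 were on the X. The median gap to the nearest other member was 655 kb, and 27 members were within 5 kb of another. Pairs and trios of that kind were at Plk2, at Setd4 (196.51 and 374.51, with 159.32 and 263.7) and at Snx20, where 3 members had 202.57, 122.41 and 105.48 in B cells and 223.11, 78.98 and 99.35 in non-B cells. Foxo3 had 2 intronic members 11814 bp apart, with 226.51 and 293.33, and 191.69 and 223.59.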

How the data were processed

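p53 ChIP-seq peak lists of 5 libraries were used. The input library was not analysed here as a list. Per the labels and the methods of the study, reads were aligned to mm9, with BWA 0.6.2 and SAMtools named in the submitters' processing notes, and MACS gave 1 peak list for each library. Judged from its values, the deposited column is the −log10 of the p-value that MACS, run by the authors, gave each peak. In irradiated B cells 33.6% and in irradiated non-B cells 35.1% of values below 40 equalled −log10 of a Poisson probability of whole reads at a single background mean of 2.03 and 2.02 reads. In the B cell and non-B cell mock lists 25.2% and 27.8% did, at means of 0.595 and 1 reads. Values below the calling limit of 8 given in the methods are present. Values are not normalised between libraries, and percentiles were taken within a list. The lists hold no read totals.

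Overlap was at least 1 bp. The non-B cell value is that of the peak with the longest overlap. Genes came from GENCODE vM1 on NCBIM37 (mm9), by peak midpoint: a start site in the window, otherwise the containing gene, otherwise the nearest start. All 127 list genes were matched, by symbol or RefSeq synonym. Repeated sequences were grouped with blastn (at least 100 bp aligned across both elements, e-value 1e-5), a peak joining a group through any 1 of its peaks, and genome copies needed 70% identity to the representative. Members named in the text were the 10 highest in B cells, the next 5 in non-B cells, 3 on either side of the limit, the 5 largest falls and rises in percentile, members at list genes and members with a perfect element. Ppm1h, Foxo3, Setd4, Snx20, Cbs, spaced elements and the printed members of repeated sequences were named after their values were seen. Members and lists were chosen with earlier results of these data known. Some list genes with a member are not reported here by name.

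No test was possible with 1 library per group. Differences of shares have Newcombe intervals. Alternatives were other overlap rules, minimum values, mock filters, element limits and promoter windows. The overlap, partner and element scan steps were tested on simulated lists and sequences. The grouping of repeated sequences, the copy search, the word counts and the promoter assignment were not tested in this way. Python 3.11.15, numpy 2.4.6, pandas 2.3.3, scipy 1.17.1, pysam 0.24.0, networkx 3.6.1, samtools 1.23.1, blastn 2.17.0 and matplotlib 3.10.9 were used.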

Additional observations from a re-analysis of the deposited data

How the results depend on the processing

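No paired analysis was possible because groups held 1 library each, which also left no library to leave out. Of 97 alternative values of 7 results, 67 stayed within the interval of the value reported (or within 1.5 times the number of members) and 30 did not. The number of members was 1122 at a minimum value of 80 and 276 at 150. The share of strong peaks absent from mock, 66.99% as reported, was 71.2% at a minimum of 80, 55.3% at 150, and 71.1% with mock peaks under a value of 8 ignored. The median non-B cell value was 98.96 at 80, 195.79 at 150 and 161.38 where 100 was also required in non-B cells. The unsplit share was 61.3% at 80, 72.8% at 150, 73.4% where 100 was also required in non-B cells, 56.3% with at most 2 mismatches, 75.1% with 4, 53.6% within 100 bp and 71.7% anywhere in the peak. In promoters it was 50.9% at 80, 49.7% with 2 mismatches, 71.01% with 4 and 44.4% within 100 bp. The spaced share was 5.43% with at most 1 mismatch and 20% with 3. The promoter share was 11% within 1 kb of a start and 16.6% for protein-coding transcripts.

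In alternatives chosen after seeing the data, leaving out peaks on the repeated sequences gave a median non-B cell value of 122.66, an unsplit share of 57.9%, a spaced share of 16.96% and a promoter share of 27.7%. Leaving out peaks with under 90% of 31-base words occurring once gave a median of 121.63 and unsplit shares of 59.8% overall and 51.5% in promoters. The other overlap rules, merging of close peaks, dropping the Trp53-/- list and a 1 kb distance from mock peaks moved none of the 7 results beyond these limits. Unknown depth, the 1 library per group and the short mock lists limit every statement on absence from mock.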
